A study of Arabidopsis thaliana with 6 samples.

Results

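The subject is the nuclear genes of the photosynthetic electron transport chain in Arabidopsis thaliana seedlings given light in the middle of the night. The members were taken by locus from a written list: 13 genes of photosystem I, 13 of photosystem II, 2 of the cytochrome b6f complex, 6 of plastocyanin, ferredoxin and ferredoxin-NADP reductase, 3 of the ATP synthase, 3 of the PGR5 and PGRL1 proteins, and the kinases STN7 and STN8 with the phosphatase TAP38. Genes of the light-harvesting antenna were not members. All 43 members were found among the 33602 loci of the gene count table, and all 43 were among the 20151 loci that passed the filter on low counts. The rule behind the choice names loci only and uses no measured value, though the members were chosen with earlier results of these data known.

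Every plant was wild type of the Columbia ecotype, raised on agar medium at 22 °C in cycles of 12 h light (50 µmol m-2 s-1) and 12 h dark. At 9 days of age, plants of the light group were lit with white light from ZT18 (18 h after dawn) for 2 h, and the dark group had no light. Both groups were harvested at ZT20, and 3 RNA-seq libraries were made for each. The labels call the material a pool of tissues, so the values are averages over the organs of a seedling.

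In oxygenic photosynthesis, photosystem II takes electrons from water, the cytochrome b6f complex passes them to plastocyanin, and photosystem I lifts them to ferredoxin, from which ferredoxin-NADP reductase (FNR) makes NADPH. The proton gradient built on the way drives the ATP synthase, and PGR5 with PGRL1 serves a cyclic path around photosystem I. The reaction centre proteins are made in the plastid from plastid genes, whereas most peripheral subunits come from nuclear genes and are imported. Many nuclear subunits of Arabidopsis are encoded by a pair of closely related genes.

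The libraries held from 8695843 to 12689543 gene counts, and the 43 members held 2.79% to 2.92% of them in the dark libraries and 3.27% to 3.36% in the light libraries. Ribosomal RNA loci took more of the counts in the libraries called dark C (4.77%) and light A (4.40%) than in the other 4, and results that change without this pair are given with both values. Of the markers listed for the tissues a seedling holds, no root or shoot marker was at 0 in every library. The summed level of 8 root markers was 232 to 255 CPM (counts scaled to the library's size) in the dark and 212 to 219 CPM in light, and that of 6 shoot epidermis and leaf markers was 265 to 277 CPM and 251 to 273 CPM. The sum of the root markers was thus lower in every light library than in every dark one, although 3 of the 8 were called higher, 2 lower and 3 in neither direction, and their part in the results was not tested. In whole seedlings a change in the number of cells of a type cannot be told apart from a change of RNA per cell.

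Changes below are on the log2 scale, light relative to dark, with ± as the standard error (n = 3 libraries per group), and coordinates are those of the files (TAIR10). After 2 h of light most of the chain's nuclear transcripts were more abundant than in continued darkness. By edgeR's quasi-likelihood test, adjusted over all 20151 loci and called under 0.05, 30 of the 43 members rose, 2 fell and 11 passed in neither direction. Over all loci tested, 56.3% were called, 28.9% higher and 27.4% lower. Among the 5967 loci at least as abundant as the lowest member, 42% were called higher and 31.5% lower. The median change of the members was 0.34 on the log2 scale, beside -0.0031 for all loci. Most changes were moderate: FD1 was the 1 member past 2-fold, where 11.5% of all loci were called and at least 2-fold changed. All 30 members that rose had every light library above every dark one, and 3 members had every light library below, where 62.4% of all loci had groups that did not overlap. The split depended on scaling, since scaling by library totals alone moved the median of all loci to -0.15 and gave 26 members higher and 8 lower. Over all loci the split then went from 5826 higher and 5527 lower to 4182 and 7397.

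**Figure D1:**
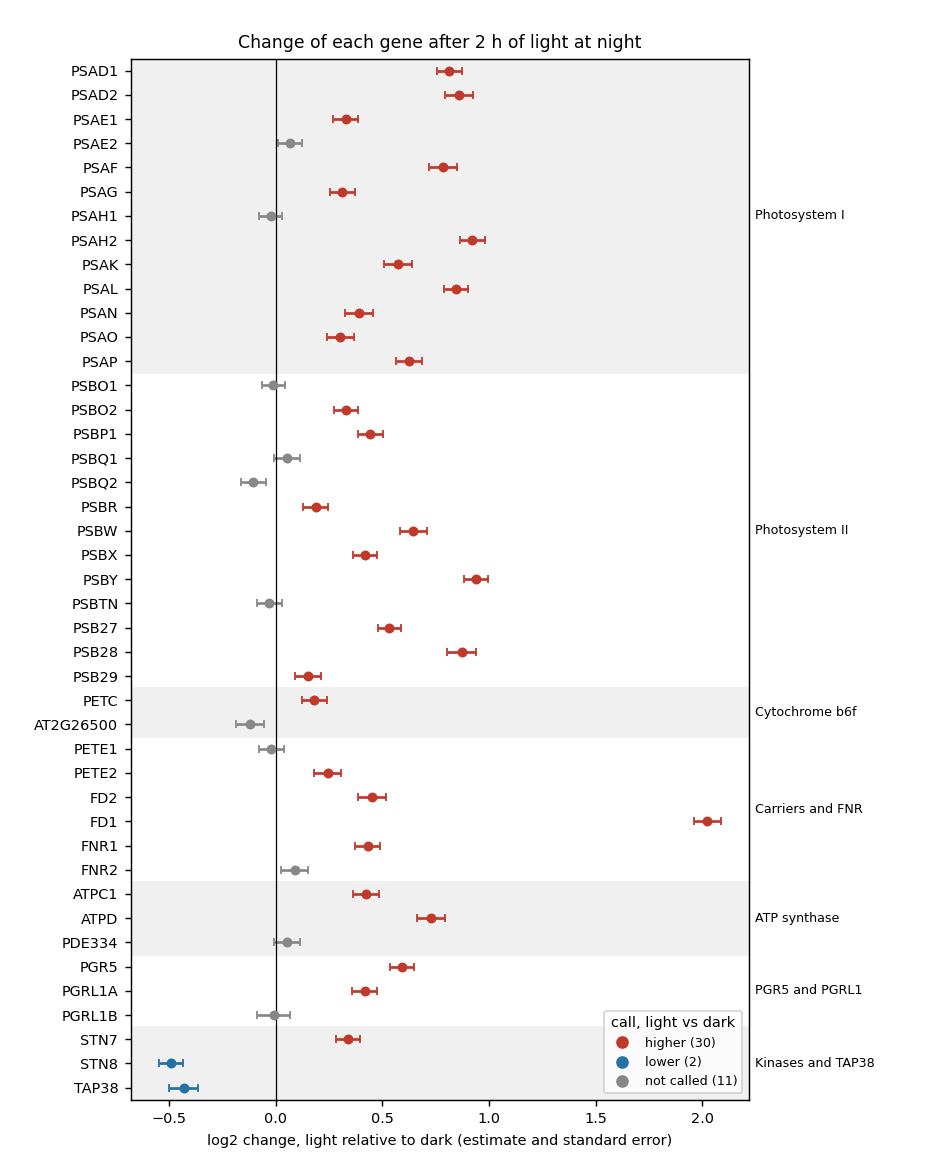
The horizontal axis gives the log2 change of each member, light relative to dark, as the edgeR estimate with its standard error (3 libraries per group), and rows are grouped by complex. The estimates run from -0.49 for STN8 to 2.02 for FD1, and 30 of the 43 points are called higher.

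The added transcript was spread unevenly over the complexes. Summed over all 43 members, the level was 27096 ± 747 CPM in the dark and 34864 ± 992 CPM in light (mean ± SD, n = 3), 28.7% higher. Photosystem I transcripts went from 7442 ± 249 to 10910 ± 355 CPM, 46.6% higher, and those of photosystem II from 11136 ± 178 to 13161 ± 328 CPM, 18.2% higher. No complex sum was tested, because the members of a complex are not replicates. The sums were 35.4% higher for the carriers with FNR, 34.9% higher for PGR5 and PGRL1, 31.8% higher for the ATP synthase subunits and 4.08% higher for the cytochrome b6f members. The kinases and TAP38 together had a lower sum in light, at 425 to 456 CPM in the dark libraries and 369.6 to 379 CPM in the light ones. These sums depended on scaling: with library totals alone the log2 ratio of light to dark went from 0.36 to 0.22 for all members, from 0.24 to 0.10 for photosystem II and from 0.058 to -0.086 for cytochrome b6f, which turned its direction.

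Photosystem I genes rose almost throughout. Of 13, 11 rose, none fell and 2 were not called, with a median of 0.57. PSAH2 (AT1G52230), whose protein lies where the mobile antenna docks, stood at 513, 492 and 539.8 RPKM (CPM per kilobase of the gene's effective length) in dark A, B and C and at 1019.5, 960.1 and 949 RPKM in light A, B and C. All 3 light libraries of PSAH2 lay far above the dark ones, a change of 0.92 ± 0.06 (edgeR, adjusted p = 4.4e-09). Its sister PSAH1 (AT3G16140, chromosome 3, 5468509 to 5469481) was at 758, 764 and 764 RPKM in the dark and at 744, 732 and 772 RPKM in light. The groups of PSAH1 overlapped, and the estimate was -0.024 ± 0.05 with a 95% interval from -0.18 to 0.13.

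PSAL (AT4G12800), which anchors the PSAH and PSAO (AT1G08380) proteins, rose by 0.84, and PSAO, which also serves antenna docking, rose by 0.30. PSAO was the most abundant of the photosystem I members per length in the dark, with 1135, 1081 and 1195 RPKM there and 1453, 1428 and 1326 RPKM in light, and its groups did not overlap. The genes for the stromal ridge that receives ferredoxin were PSAD1 (AT4G02770, 0.81), PSAD2 (AT1G03130, 0.86) and PSAE1 (AT4G28750, 0.33), all of which rose, and PSAE2 (AT2G20260), which was not called (0.067, 95% interval -0.086 to 0.22). On the lumenal side, PSAF (AT1G31330), which binds plastocyanin, rose by 0.79 and PSAN (AT5G64040) by 0.39. The antenna-side subunits PSAK (AT1G30380) and PSAG (AT1G55670) rose by 0.57 and 0.31. PSAP (AT2G46820), a thylakoid protein now also known as CURT1B and as a shaper of grana margins, rose by 0.63. The standard errors of these log2 changes lay between 0.05 and 0.07.

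**Figure D2:**
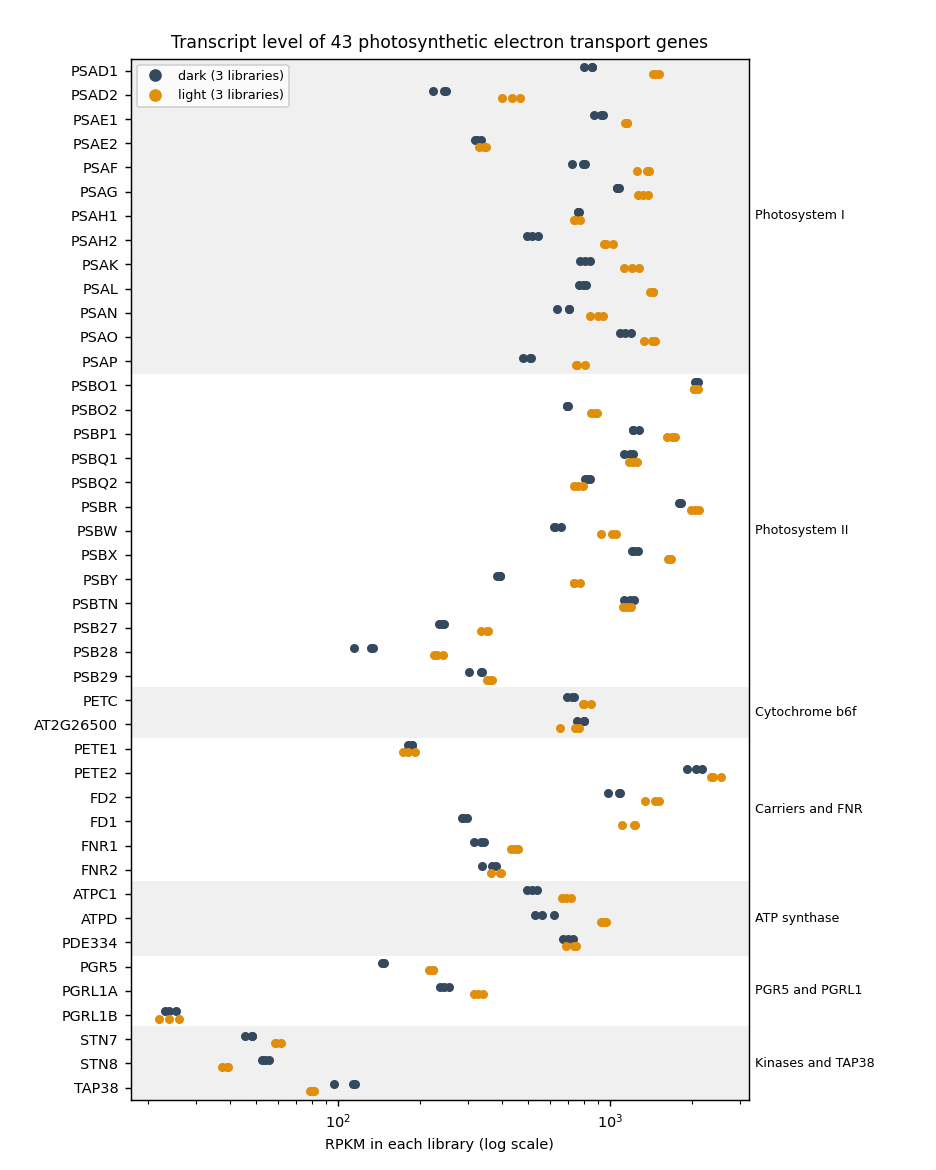
Each point is the level of a member in 1 library, in RPKM on a log axis, with dark and light libraries in different colours and members grouped by complex. Mean dark levels run from 24.1 RPKM (PGRL1B) to 2065 RPKM (PSBO1), and in 30 members the light points lie above all dark points.

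In photosystem II, several small and assembly-related subunits rose, and several abundant proteins of the oxygen-evolving complex were not called. Of 13 genes, 9 rose, none fell and 4 were not called, with a median of 0.33. PSBY (AT1G67740), a low-mass membrane subunit, was at 391, 382 and 394 RPKM in the dark and at 771, 732 and 738 RPKM in light. Its light libraries were close to double the dark ones, with a change of 0.94 ± 0.06 (edgeR, adjusted p = 1.8e-09). PSBO1 (AT5G66570, chromosome 5, 26568653 to 26570278), which encodes the manganese-stabilizing protein, had the highest mean of all members in the dark, close to that of the plastocyanin gene PETE2, at 2098, 2057 and 2039 RPKM. In light it stood at 2090.3, 2022 and 2033 RPKM, and the groups overlapped (-0.011 ± 0.05, 95% interval -0.16 to 0.14).

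Among the other genes of the oxygen-evolving complex, PSBO2 (AT3G50820) rose by 0.33, PSBP1 (AT1G06680) by 0.44 and PSBR (AT1G79040) by 0.19. PSBR lost its call without dark A (adjusted p = 0.057), without light A (adjusted p = 0.065) without the pair of libraries rich in ribosomal RNA (adjusted p = 0.098) and with scaling by library totals alone (adjusted p = 0.54), all by edgeR. PSBQ2 (AT4G05180) had the lowest estimate of the photosystem II members, with 843, 807 and 818 RPKM in the dark and 792, 763 and 737 RPKM in light. The light libraries of PSBQ2 were all below the dark ones, yet the change of -0.11 ± 0.06 was not called (edgeR, adjusted p = 0.13). Its partner PSBQ1 (AT4G21280) was not called (0.052). Of the low-mass subunits, PSBW (AT2G30570) rose by 0.65 and PSBX (AT2G06520) by 0.42, and PSBTN (AT3G21055) was not called (-0.030). The assembly and repair proteins PSB28 (AT4G28660) and PSB27 (AT1G03600) rose by 0.87 and 0.53. PSB29 (AT2G20890), also known as THF1, rose by 0.15 with an adjusted p of 0.042 (edgeR). That call was lost on leaving out any of dark A, dark B, light A, light B or light C, with adjusted p from 0.051 to 0.137, with no filter on low counts (0.052) without the pair rich in ribosomal RNA (0.127) and with scaling by library totals alone (0.92), all by edgeR.

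The cytochrome b6f complex has few nuclear subunits, and of the 2 members 1 rose and 1 was not called. PETC (AT4G03280), the Rieske iron-sulfur protein, was at 735, 695 and 725 RPKM in the dark and at 849, 793 and 799 RPKM in light. The groups of PETC did not overlap, and the change was 0.18 ± 0.06 (edgeR, adjusted p = 0.016), with the call lost without light A (adjusted p = 0.085) without the pair of libraries rich in ribosomal RNA (adjusted p = 0.11) and with scaling by library totals alone (adjusted p = 0.61). AT2G26500, listed under this complex, was at 797, 752 and 798 RPKM in the dark and at 764, 741 and 654 RPKM in light. Its groups overlapped, and the change of -0.12 ± 0.07 was not called (edgeR, adjusted p = 0.14).

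The carriers around photosystem I included the member that changed most. FD1 (AT1G10960, chromosome 1, 3664386 to 3665039), the less abundant of the leaf ferredoxins in the dark, was at 286, 288 and 298 RPKM in the dark and at 1232, 1099 and 1216 RPKM in light. This is a 4.07-fold rise (2.02 ± 0.06, edgeR, adjusted p = 1.3e-12), and the lowest light library was well above the highest dark one. FD2 (AT1G60950), the major leaf ferredoxin, was at 1077, 983 and 1083 RPKM in the dark and at 1510.0, 1453 and 1339 RPKM in light, and it rose by 0.45 ± 0.07. In light both ferredoxins thus stood at like levels per length, from 1099 to 1510.0 RPKM.

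Of the plastocyanin genes, which encode the copper protein that feeds photosystem I, PETE2 (AT1G20340) was at 2062, 1909 and 2174 RPKM in the dark and at 2544, 2345 and 2383 RPKM in light. It rose by 0.24 ± 0.06, and its groups did not overlap, but the call was lost with scaling by library totals alone (edgeR, adjusted p = 0.145). PETE1 (AT1G76100), the minor gene, was at 186, 181 and 187 RPKM in the dark and at 191, 181 and 173 RPKM in light, with overlapping groups and no call (-0.020). FNR1 (AT5G66190) rose by 0.43, from 331 ± 13.3 to 446 ± 13.2 RPKM, and FNR2 (AT1G20020) was not called (0.089, 95% interval -0.086 to 0.26).

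Among nuclear genes of the ATP synthase, ATPD (AT4G09650), the delta subunit, was at 562, 529.8 and 623 RPKM in the dark and at 966, 953 and 922 RPKM in light. ATPD rose by 0.73 ± 0.07 (edgeR, adjusted p = 2.1e-07), with groups well apart. ATPC1 (AT4G04640), the gamma subunit through which the enzyme is switched by thioredoxin, rose by 0.42. PDE334 (AT4G32260), a subunit of the membrane part, was the most abundant of the 3 in the dark, at 726, 698 and 672 RPKM there and 737, 686 and 749 RPKM in light, and it was not called (0.051 ± 0.06, edgeR, adjusted p = 0.50). Genes of 1 enzyme therefore differed in their response from no call to a 1.66-fold rise.

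The cyclic pathway gave a like picture. PGR5 (AT2G05620) was at 148, 146 and 145 RPKM in the dark and at 222, 224 and 215 RPKM in light, and it rose by 0.59 ± 0.05 (edgeR, adjusted p = 2.4e-07). PGRL1A (AT4G22890), its membrane partner, was at 245, 237 and 255 RPKM in the dark and at 328, 316 and 341 RPKM in light. Both genes had groups that did not overlap, and PGRL1A rose by 0.42 ± 0.06. PGRL1B (AT4G11960), the lowest member by level, was at 23.1, 25.4 and 23.8 RPKM in the dark and at 24.0, 22.0 and 26.1 RPKM in light, and was not called (-0.011).

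The regulators of thylakoid protein phosphorylation held both members that fell. STN7 (AT1G68830), the kinase that phosphorylates the mobile antenna, was at 48.0, 45.3 and 48.2 RPKM in the dark and at 59.2, 58.5 and 61.5 RPKM in light, and rose by 0.34 ± 0.06 (edgeR, adjusted p = 0.00012). STN8 (AT5G01920, chromosome 5, 359107 to 362904), the kinase of photosystem II core proteins, was at 54.0, 55.9 and 52.6 RPKM in the dark and at 37.3, 39.2 and 39.0 RPKM in light, and it fell by 0.49 on the log2 scale (SE 0.06, edgeR, adjusted p = 2.5e-06). The related kinases thus changed in opposite directions, each without overlap between the groups. TAP38 (AT4G27800, chromosome 4, 13851862 to 13854191), the phosphatase that reverses the action of STN7 on the antenna, was at 115, 114 and 96.8 RPKM in the dark and at 81.3, 78.7 and 81.1 RPKM in light. It fell by 0.43 on the log2 scale (SE 0.07, edgeR, adjusted p = 6.9e-05). The directions of STN7, STN8 and TAP38 were the same under every scaling tried. STN8 overlaps another locus by coordinates, as do PSAE2, PSAH1, PSBR, PSB29 and FNR1, and the use of strand in counting is not given in the sources used here.

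The 2 genes of a pair were next set against each other. The ratio of the copies was taken in each library, and with 3 libraries against 3 the exact two-sided permutation test cannot go below p = 0.10, so no ratio can pass 0.05. In 8 of the 9 pairs of copies, as in STN7 against STN8, the ratios of the groups did not overlap, which gives this smallest p in each case (0.111 after Benjamini-Hochberg adjustment over the 10 ratios). Groups of single loci did not overlap in 62.4% of all cases, as given above, and no such share was computed for ratios. PSAD1 over PSAD2 was the exception, at 3.50 in the dark and 3.39 in light (exact permutation p = 0.50). Thus for PSAD the 2 copies rose side by side within the spread of the libraries, with a difference of -0.043 ± 0.046 in log2 ratio.

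The widest shift was in the ferredoxins, where FD2 over FD1 went from 3.60 (libraries 3.42 to 3.77) in the dark to 1.21 (1.10 to 1.32) in light. In photosystem I, PSAH1 over PSAH2 went from 1.48 (1.42 to 1.55) to 0.768 (0.730 to 0.813), so the copy that was the lower in the dark was the higher in light. FNR1 over FNR2 crossed 1 as well, from 0.917 to 1.16, and STN7 over STN8 from 0.871 to 1.55. In the remaining pairs the same gene stayed the higher one. PSBO1 over PSBO2 went from 2.97 to 2.35, PSAE1 over PSAE2 from 2.80 to 3.36, PSBQ1 over PSBQ2 from 1.42 to 1.59, PGRL1A over PGRL1B from 10.2 to 13.7 and PETE1 over PETE2 from 0.0902 to 0.0750.

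**Figure D3:**
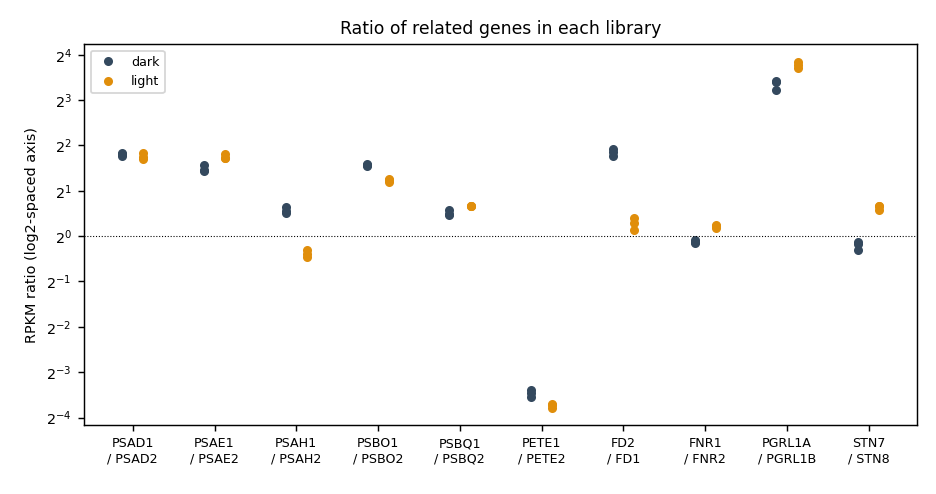
Each point is the RPKM ratio of a pair of related genes in 1 library, on a log2-spaced axis, for 3 dark and 3 light libraries. FD2 over FD1 goes from 3.60 to 1.21 and PSAH1 over PSAH2 from 1.48 to 0.768, and the groups overlap for PSAD alone.

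Reads that match both copies of a pair may have been shared or dropped in counting, and how they were treated is not known, so the values of single copies are uncertain. Summed counts of the copies rose for FD (0.89 ± 0.06), PSAD (0.83 ± 0.06), PSAH (0.43 ± 0.06), PGRL1 (0.38 ± 0.06), PSAE (0.27 ± 0.06), FNR (0.27 ± 0.06) and PETE (0.23 ± 0.06). The sums of PSBO (0.082 ± 0.05, edgeR, adjusted p = 0.21) and PSBQ (-0.016 ± 0.06, edgeR, adjusted p = 0.83) were not called. The 2 pairs without a called sum both belong to the oxygen-evolving complex.

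The genes that work beside the chain were read from fixed lists in the same test. For comparison with each list, 28.9% of all loci tested were called higher and 27.4% lower. Of 17 nuclear genes for the NDH complex, which carries electrons from ferredoxin back to the plastoquinone pool, 12 rose, 1 fell and 4 were not called, with a median of 0.44. PnsB2 rose by 1.18 ± 0.06, NdhT by 1.15 ± 0.07 and PnsB3 by 0.68 ± 0.05, while NdhO fell by 0.25 on the log2 scale. Most of the listed NDH genes thus moved in the direction of the members.

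Of 12 further thylakoid proteins and regulators, 9 rose, none fell and 3 were not called (8 and 1 with scaling by library totals alone). KEA3, the thylakoid potassium-proton exchanger, led them at 1.39 ± 0.08, followed in adjusted p by AT1G74730 (0.81 ± 0.06) and AT5G08050 (0.78 ± 0.06). Assembly factors were more mixed: 15 of 31 rose, 4 fell and 12 were not called, with a median of 0.16. The split was 10 and 8 with scaling by library totals alone. Of this list 48.4% were thus higher and 12.9% lower. Among the 5967 loci at least as abundant as the lowest member the shares were 42% and 31.5%, so the share higher was near that of such loci. DAC, a factor of cytochrome b6f accumulation, rose by 0.83 ± 0.06, HCF244, needed for making the D1 protein, by 0.66 ± 0.06, and AT5G07020 by 0.51 ± 0.06. PAM68 fell by 0.46, HCF208 by 0.35 and HCF136 by 0.21 on the log2 scale. PAM68 and HCF136 serve photosystem II assembly and HCF208 the cofactor of cytochrome b6, so factors of the same complexes moved in both directions.

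The antenna genes, which are no members, gave 18 higher, 1 lower and 2 not called of 21, with a median of 1.14 against 0.34 for the members. Among 5 regulators of photosynthesis genes, 3 rose and none fell. GPRI1, also known as GLK1, a transcription factor of chloroplast development, rose by 2.18 ± 0.07 from 46.8 to 213 CPM, CGA1 by 0.75 ± 0.11 and GUN1, of plastid-to-nucleus signalling, by 0.20 ± 0.06. GUN1 lost its call with scaling by library totals alone (0.060, edgeR, adjusted p = 0.42).

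**Figure D4:**
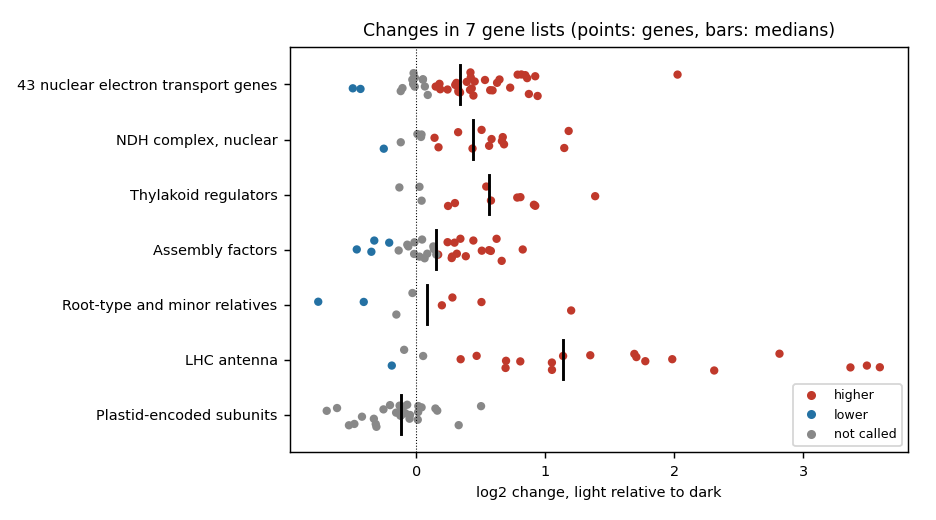
Each point is the log2 change of a gene, light relative to dark, in 7 gene lists including the members, and bars mark the medians. The members have a median of 0.34, the NDH genes 0.44, the antenna genes 1.14 and the plastid-encoded subunits -0.12.

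The plastid-encoded partners of the same complexes showed no called change. Of 32 listed, 28 were tested, and none was called by edgeR or by DESeq2 (0 and 1 with an unadjusted p under 0.05). Their summed level was 226, 339 and 731 CPM in dark A, B and C and 776, 223 and 209 CPM in light A, B and C. The sum was highest in dark C and light A, the libraries richest in ribosomal RNA, and the 2 groups overlapped. Without light A, 10 of the 28 were called lower, without dark A 2, without both libraries rich in ribosomal RNA 3, with no filter on low counts 1 and with scaling by library totals alone 2. The summed level of the nuclear members ran from 26244 to 27639 CPM in the dark and from 34078 to 35978 CPM in light, and 27 of them rose without that pair of libraries.

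Transcript structure was next read from the counts of alternatively spliced parts, introns and exons, each tested relative to the count of its gene and adjusted over the whole table. Of 13 alternatively spliced parts tested (of 18 listed, in 12 genes), 1 fell, where 1.19% of the 3348 parts of all genes were called. Of 143 exon parts tested, 1 fell, where 0.0988% of 102199 were called. Of 43 introns tested in 25 genes (of 105 listed), 6 rose and 1 fell, where 5.94% of 3402 were called.

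The alternatively spliced part that fell lies in PSAP (chromosome 2, 19243590 to 19243699) and is annotated as intron retention. It held 6.40, 7.24 and 6.84 reads per 100 reads of the gene in dark A, B and C and 4.13, 4.24 and 4.18 in light A, B and C. The groups were far apart (-0.70 ± 0.06, edgeR, adjusted p = 3.7e-07). Only 3 to 15 reads per library spanned the junction across this part, so the junction reads are too few to measure its splicing. The exon part at the gene's lower coordinate end, beyond it, held 4 to 12 reads per library. The exon part on its other side was also lower in every light library, without a call (-0.12 ± 0.02, edgeR, adjusted p = 0.10). Whether the fall is one of intron retention was not tested. The part held 421 to 463 reads per dark library and 271 to 387 per light library, while the gene as a whole rose.

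In FNR2, a gene whose total was not called, the first intron by coordinate (chromosome 1, 6942956 to 6943227) held 3.55, 3.76 and 3.19 reads per 100 reads of the gene in the dark and 1.64, 1.72 and 1.85 in light. Its share fell by 1.01 on the log2 scale (SE 0.12, edgeR, adjusted p = 0.0012), with no overlap between groups. Set against reads spliced across the same intron, there were 50.0 ± 6.55 intron reads per 100 junction reads in the dark and 23.8 ± 1.65 in light. Both denominators thus give less of this intron in light.

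The other called introns were higher in light and rested on fewer reads. The intron of PDE334 (chromosome 4, 15574024 to 15574091) went from 0.450 ± 0.020 to 1.02 ± 0.231 reads per 100 reads of the gene (1.18 ± 0.19, edgeR, adjusted p = 0.0066). Introns of PSBQ2 (1.18 ± 0.23), PSAP (0.85 ± 0.18), PSAK (0.78 ± 0.18) and AT2G26500 (0.92 ± 0.22) were also called, each with 15 to 74 reads per library. An intron of PGRL1A (1.51 ± 0.38, edgeR, adjusted p = 0.043) held only 3 to 15 reads per library. Its call was lost on leaving out any library (edgeR, adjusted p from 0.069 to 0.151). Of the 6 calls of a higher intron, that of PDE334 held under every alternative run, and the others were lost under DESeq2 and under 1 or more of the fits that leave out a library.

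**Figure D5:**
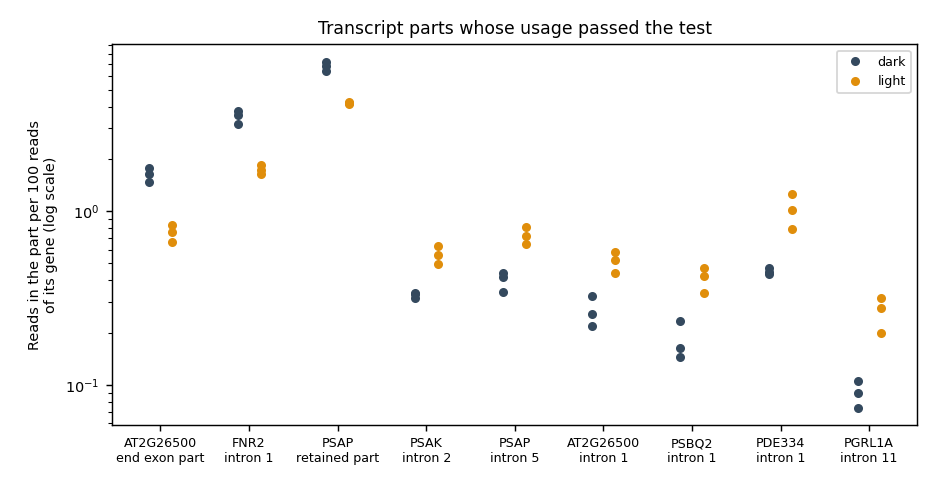
Each point is the number of reads in a called part per 100 reads of its gene in 1 library, on a log axis, for 3 dark and 3 light libraries. The PSAP part goes from 6.83 to 4.18 and the first FNR2 intron from 3.50 to 1.74, and the 6 introns at the right are higher in light.

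Beyond single calls, the estimate was above 0 for 40 of the 43 tested introns of the members, with a median of 0.51. Over all 3402 tested introns it was above 0 for 54.9%, with a median of 0.046. The filter on low counts keeps an intron that reaches its cutoff in 1 group alone, and most members rose in light. Weak introns could thus enter through the light group, as that of PGRL1A with 3 to 5 reads per dark library and 10 to 15 per light library. The shares and medians of the 2 sets are therefore no like comparison. The sums that follow use all 105 listed introns, without this filter. Over the 30 members with introns in the table, intron reads came to 0.592 to 0.702 per 100 gene reads in the dark and 0.780 to 0.816 in light. Over all genes with introns the same measure was 2.21 to 2.33 in the dark and 2.07 to 2.15 in light. Intron reads of the members were thus higher in every light library while those of all genes were lower, and no test was made of either sum.

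In AT2G26500 the called exon part near the gene's lower coordinate end (chromosome 2, 11270136 to 11270217) held 1.63, 1.47 and 1.77 reads per 100 reads of the gene in the dark and 0.836, 0.662 and 0.763 in light (-1.12 ± 0.12, edgeR, adjusted p = 0.0033). The part annotated as retained intron (chromosome 2, 11270596 to 11270691) held 42.6 ± 1.15 in the dark and 42.9 ± 0.494 in light, with overlapping groups and no call, and 2 to 4 reads per library spanned the junction across it. Reads within this part thus far outnumbered reads that skip it in both groups.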

How the data were processed

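The submitters' processing notes name TopHat2 2.0.9, R 3.1 and the build TAIR10, without their roles. The authors deposited raw counts per gene, exon part, alternatively spliced part, intron and splice junction, with 1 column per library. For the counting program, its use of strand and its treatment of reads that match several loci, the sources used here say nothing. Column names carry the group and a letter, which is used here as the library's name and does not tie a column to a replicate number. The labels do not say whether the libraries of a group are separate cultures, and the p-values cover only the spread between these libraries, which could be technical. No pair of libraries agreed within sampling noise, the lowest chi-square within a group being 2.66 per degree of freedom.

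The test for genes was edgeR's quasi-likelihood F test (glmQLFit, glmQLFTest) after TMM normalization and filterByExpr, with Benjamini-Hochberg adjustment over all genes tested. The 15 ribosomal RNA rows stayed in. CPM uses the TMM-scaled totals, and RPKM divides it by the effective length in the file. Intervals of 95% use the standard error and 4 residual degrees of freedom. Alternatively spliced parts, introns and exons were tested likewise, with log(gene count + 0.5) in the same library as offset, and a read can fall in several parts. Work was done in R 4.3.3 with DESeq2 1.42.0 and edgeR 4.0.16 (on limma 3.58.1). Simulated data had 200 changed features in each table. There the gene test found 37.3% of 1.25-fold changes, 77.6% of 1.5-fold and 89.4% of 2-fold ones, with 14 of 150 calls false. At the same folds the intron test found 0 of 67, 3 of 67 and 14 of 66, with 2 of 19 calls false. For exons 15 of 99 calls were false, and for alternatively spliced parts 1 of 77. In the data 56.3% of all loci were called, so the adjusted threshold for genes was less strict than in the simulation. The simulated rates for genes therefore do not describe the gene test on these data. A gene or intron that was not called may still have changed. The loci of all 43 members matched RefSeq. Genes of the other lists carry its symbols, while some names used for members differ from it, as PETE2, there DRT112.

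Values per library are given, in each complex, for the member that rose most, the one with the lowest estimate and the most abundant one, and for both copies of pairs that differ by over 0.5 in log2 change. From the lists, other than those of antenna, marker and reference genes, up to 3 called genes per direction are named by adjusted p. All called introns are named. The members and lists were chosen with earlier results of these data known. Alternatives were other scalings, DESeq2, no filter, no ribosomal RNA loci, summed copies, a block on the column letter, and leaving out each library or the pair rich in ribosomal RNA.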

Additional observations from a re-analysis of the deposited data

How the results depend on the processing

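All 43 members kept direction and side of the threshold with RLE size factors, DESeq2, no ribosomal RNA loci or the block. Leaving out each library gave 27 to 30 members higher and 2 lower. Without normalization beyond library totals 26 were higher and 8 lower: PSAH1, PSBO1, PSBQ2, PSBTN, AT2G26500 and PETE1 became called, PSBR, PSB29, PETC and PETE2 lost their calls, and 4 uncalled estimates changed sign, PSAE2 to -0.077, PSBQ1 to -0.091, FNR2 to -0.054 and PDE334 to -0.093. Under that scaling the log2 ratio of summed levels was 0.22 for all members, 0.41 for photosystem I, 0.10 for photosystem II, -0.086 for cytochrome b6f, 0.29 for the carriers, 0.26 for the ATP synthase, 0.29 for PGR5 and PGRL1 and -0.40 for the kinases with TAP38. Some summed counts of a pair had the opposite sign to the uncalled estimate of a copy. These sums were 0.43 for PSAH (against PSAH1), 0.082 for PSBO (PSBO1), -0.016 for PSBQ (PSBQ1), 0.23 for PETE (PETE1) and 0.38 for PGRL1 (PGRL1B). They are changes of both copies together and not of the single gene. The PSBO sum was not called (edgeR, adjusted p = 0.21), although PSBO2 alone was. Other changes of sign were of estimates near 0: on leaving out a library, PETE1 ranged from -0.056 to 0.013 (positive without light C) and PGRL1B from -0.067 to 0.054 (positive without dark B or light B), and PDE334 was -0.0063 without the pair rich in ribosomal RNA. The introns of members called higher, 6 in the report, numbered 3 with no filter, 1 with DESeq2, 1 to 3 on leaving out a library and 3 with the replicate block. The cause of these changes was not tested. Column letters gave no pairing: deviations of same-lettered libraries correlated at -0.07, 0.12 and -0.04, and the block changed no other call of a member gene. Most called introns rest on few reads per library, which limits the precision of their shares.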

Other observations

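Minor and non-photosynthetic relatives of the members moved in both directions. Of 8 such genes 4 rose, 2 fell and 2 were not called, with a median of 0.08. These are 50% higher and 25% lower, beside 28.9% and 27.4% of all loci tested. Movement in both directions is thus no trait of these relatives. Among those of non-green tissues, RFNR2 rose by 1.20 ± 0.12, FD3 by 0.51 ± 0.08 and RFNR1 by 0.28 ± 0.09. The minor relatives PSBP-2 and ATPC2 fell by 0.76 and 0.41 on the log2 scale, all by edgeR's adjusted threshold. Both were at low levels, PSBP-2 at 4.19 CPM in the dark and 2.45 CPM in light and ATPC2 at 8.41 and 6.34 CPM. On leaving out a library, RFNR1, PSBP-2 and ATPC2 could each lose the call (edgeR, highest adjusted p 0.082, 0.080 and 0.069). Genes higher numbered 2 without dark A, without dark B and with scaling by library totals alone. Genes lower numbered 4 under that scaling and 1 without dark C, without light A, without both libraries rich in ribosomal RNA and with DESeq2.

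Root markers gave 3 higher, 2 lower and 3 not called of 8 (2 and 3 with scaling by library totals alone), with 1 to 3 lower on leaving out a library, and 1 with DESeq2 and without the pair of libraries rich in ribosomal RNA. Shoot epidermis and leaf markers gave 1 higher, 3 lower and 2 not called of 6. Commonly used reference genes gave 1 higher, 1 lower and 6 not called of 8 (1 and 4 with scaling by library totals alone, 2 lower without dark A). Their summed level was 3741 to 3962 CPM in the dark and 4099 to 4163 CPM in light, without overlap. What this sum means for the scaling was not tested. Beside these 3 lists, 28.9% of all loci tested were called higher and 27.4% lower.

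In AT2G26500 the less used junction from base 11270267 to base 11270368 of chromosome 2 had 113, 95 and 88 reads in dark A, B and C and 85, 0 and 58 in light A, B and C. The junction that ends 4 bases earlier had 984, 833 and 1059 reads in the dark and 743, 731 and 516 in light. The count of 0 in light B was noticed after the values were seen and was not tested.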
